A study of Mus musculus with 40 samples.

Results

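The 19 livers of WT mice in a feeding time course were ordered by a score built from 2 genes of the circadian clock, Dbp and Arntl. The score was the log2(CPM + 1) of Dbp minus the log2(CPM + 1) of Arntl, where CPM is the count of a gene scaled to the total counts of its library. The groups were chosen by these measured levels of Dbp and Arntl alone. The 6 livers with the highest scores and the 6 with the lowest scores were compared over all other genes, and the 7 livers between them are shown as the middle group. These 19 libraries are part of 40 in all.

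The mice were females of the C57BL/6JBomTac strain, 9 weeks of age, moved from a fortified breeding chow to a purified control diet (PD) and sampled after 3, 6, 12, or 21 days on it. WT mice carried floxed Nampt alleles (Nampt fl/fl) without Cre, and their HNKO littermates carried the same floxed alleles with Alb-Cre+/-. Nampt makes the rate-limiting enzyme of NAD salvage, and the albumin promoter drives Cre in hepatocytes, so the knockout is aimed at these cells. Which other cells of an HNKO liver keep the gene was not tested here. Of the WT livers, 4 came from day 6 and 5 from each of the other days. The 19 HNKO livers that passed the quality control of the study, 5, 5, 6, and 3 at the same days, are used here as samples that the choice of the WT groups did not touch. No source used here gives the hour at which a liver of this time course was taken or whether the mice had been fasted, so the score orders the livers and does not give an hour.

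In the liver clock, the activators CLOCK, NPAS2, and BMAL1 (the product of Arntl) bind E-boxes and switch on the Per and Cry repressors, the REV-ERB receptors, and output factors such as DBP. The REV-ERB receptors repress Arntl and Npas2 at ROR elements, which the ROR receptors activate. DBP, TEF, and HLF activate D-box genes, which NFIL3 represses. In rodent liver Dbp and Arntl peak in opposite parts of the day, and many genes of bile acid, heme, glucose, and lipid metabolism follow the clock, the meals, or both.

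Total counts ranged from 17638065 to 64181492 over the 19 WT libraries (median 26264567). The largest library was WT library 21 of day 21, in the high group. The hepatocyte markers Alb, Ttr, Apoa1, Serpina1c, Tat, and Cps1 summed to 84879 to 124339 CPM in the high group and to 98775 to 111718 CPM in the low group. The labels number the libraries without tying them to litters or cages, so the errors and p-values below measure the spread between these libraries. In whole liver, fewer cells of a type and less RNA per cell cannot be told apart.

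The score ran from -2.75 to 5.73 over the 19 WT livers, a gap of 6.42 between the means of the high and low groups (4.89 and -1.53). Dbp lay at 77.7 to 162 CPM in the high group, up to 58.1 CPM in the middle group, and 2.64 to 15.3 CPM in the low group. Arntl lay at 2.01 to 4.28 CPM, 6.58 to 22.0 CPM, and 17.3 to 27.8 CPM in the same order. Just inside the high group stood a liver at 3.98 and just outside it one at 2.96, and just inside the low group stood a liver at -0.73 and just outside it one at 0.06. Dbp overlaps Sphk2 on the opposite strand, and the strand setting of the counting is not given in the sources used here. Sphk2 differed by -0.54 ± 0.12 (SE) log2 CPM between the groups, opposite in sign to Dbp.

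The days of feeding were not spread evenly over the groups. All 5 livers of day 3 were in the middle group, with scores from 0.06 to 2.39. The livers of day 6 split into 2 of the high group (5.31 and 5.53) and 2 of the low group (-0.73 and -1.62). Day 12 had 1 high liver (5.73) against 4 low livers (-2.75 to -0.89), and day 21 had 3 high livers and 2 middle livers (2.69 to 4.65). The 6 high livers all bear library numbers up to 21, as do 2 of the 6 low livers, and the labels do not say what the numbers stand for. Days 6 and 12 are the days found in both groups, with 3 high and 6 low livers between them. The HNKO livers ranged from -3.20 to 4.76, and their day 3 livers were also close together, at -1.08 to 0.47.

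**Figure D1:**
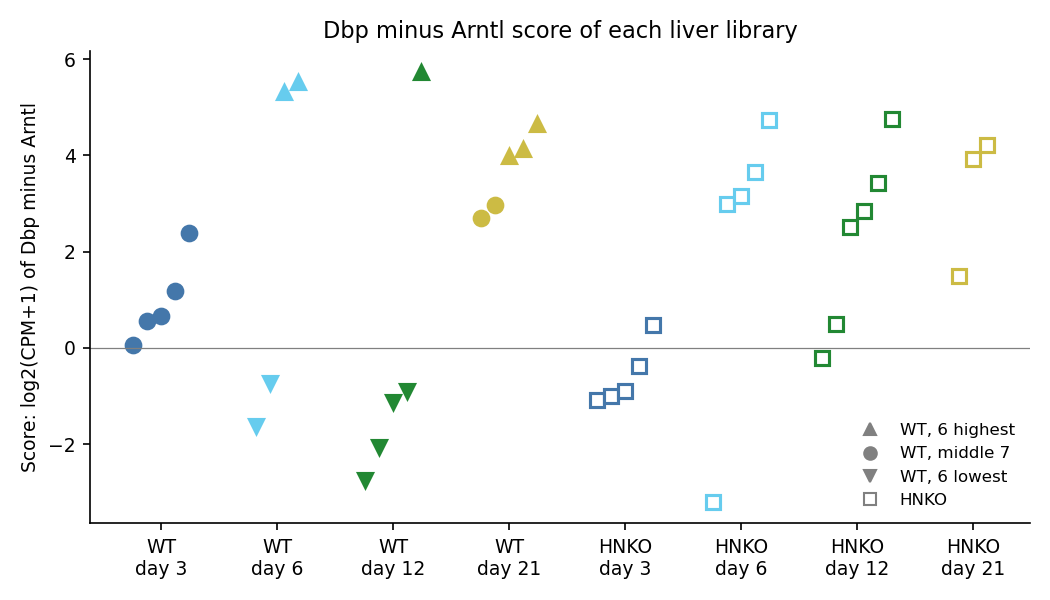
Score of each library (log2(CPM + 1) of Dbp minus that of Arntl) by genotype and day of PD feeding, with 1 symbol per liver. Triangles pointing up are the 6 highest WT livers, triangles pointing down the 6 lowest, circles the middle 7, and open squares the 19 HNKO livers. The WT livers of days 6 and 12 fall on both sides, from -2.75 to 5.73, and 1 HNKO liver of day 6 lies at -3.20.

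Expression is given from here on as log2 CPM (library sizes scaled by TMM over the 19 WT livers, prior count 2), and a difference is the mean of the 6 high livers minus the mean of the 6 low livers, with its SE. No test was run on this difference, because the same libraries chose the groups. A gene was counted where the difference was at least 1 in size, which is a 2-fold change, and no high liver overlapped a low one. By that rule 76 of 20295 tested genes were higher in the high group (0.374%) and 96 were lower (0.473%), and 573 genes (2.82%) did not overlap at any size. In the 7 middle livers the mean lay between the means of the extreme groups for all 76 higher genes and for 93 of the 96 lower genes. Both sets were chosen for a wide gap between the extreme groups, which favors a mean between them, so these counts are a description. The relation was tested in the 19 HNKO livers as the slope of log2 expression on the score, with a mean for each day, by edgeR's quasi-likelihood test with Benjamini-Hochberg adjustment over all genes. There 440 genes had a positive slope (2.17%) and 303 a negative slope (1.49%) at an adjusted p under 0.05, and 4100 genes (20.2%) had an unadjusted p under 0.05.

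The HNKO counts rested in large part on 1 liver, library 29 of day 6, which had the lowest score of all (-3.20) against 2.99 to 4.73 in the other 4 HNKO livers of its day. Without it the counts were 69 positive (0.34%) and 73 negative genes (0.36%). With the 2 HNKO livers of day 21 that failed the quality control added, they were 139 and 60. Library 29 also had a summed 929 CPM of the bile duct markers against 108 to 590 CPM in the other 18 HNKO livers. Its Kupffer cell markers summed to 823 CPM against 271 to 706 CPM, and its hepatocyte markers to 67186 CPM against 77758 to 114082 CPM. In log2 CPM (TMM over the 19 HNKO livers), Spp1 (9.58 against 6.62 to 8.94) and Sox9 (3.33 against 1.89 to 3.02) were highest in it. The bile duct markers Krt7, Krt19, and Epcam lay within the range of the others. Of the Kupffer cell markers only Adgre1 was highest in it, and of the hepatocyte markers Alb, Ttr, and Cps1 were lowest. The summed endothelial markers of library 29 (604 CPM against 496 to 593 CPM) and lymphocyte markers (9.80 CPM against 4.69 to 8.23 CPM) were also above all others. Its summed stellate cell markers (1587 CPM) were level with the highest of them. By gene, no endothelial marker was highest in library 29, and Dnase1l3 was lowest there (5.34 against 5.39 to 6.12). Of the lymphocyte markers only Cd3d was highest there, and of the stellate cell markers Col1a1 and Col3a1 were. The part of these markers in the HNKO slopes was not tested. For the genes below whose HNKO slope is described, other than Cldn1, the slope without library 29 is therefore given where the call was lost or the slope moved by over 1.5 times. Of 50 named genes called with all 19 HNKO livers, 26 lost the call without library 29, and 14 of these had a slope of larger size without it.

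Among the clock activators, Npas2 and Clock were lower in the high group. Npas2, encoded at chr1:39193731-39363236 (plus strand, GRCm38), makes a partner of BMAL1 that can stand in for CLOCK. It had a lowest, median, and highest value of -2.23, -0.68, and 0.37 in the high livers, -0.22, 0.72, and 2.03 in the middle livers, and 2.41, 2.60, and 3.17 in the low livers. No high liver came near a low one, and the difference was -3.51 ± 0.39, or 11.4-fold lower. The counts behind it were 3 to 38 in the high livers and 117 to 313 in the low livers. Clock lay at 5.12 to 6.26 in the high livers and 6.63 to 6.87 in the low livers, a difference of -0.98 ± 0.17. Its middle livers (6.27 to 6.98) reached as high as the low ones. In HNKO livers both fell with the score, Npas2 by 0.51 ± 0.06 per unit of score (adjusted p = 9.35e-05, edgeR) and Clock by 0.09 ± 0.01 (adjusted p = 0.0023), and both calls held without library 29. Arntl2, the paralog of Arntl, overlapped between the groups (0.19 ± 0.19).

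Of the 6 repressors of the negative limb, 5 were higher in the high group without overlap, against 302 of all genes (1.49%), and 4 of them by the 2-fold rule, against 0.374%. Per3 had a lowest, median, and highest value of 6.38, 7.12, and 7.34 in the high livers, 4.35, 4.98, and 6.08 in the middle livers, and 2.78, 3.48, and 4.17 in the low livers. The 3 groups did not overlap at all, and the difference was 3.52 ± 0.25, or 11.4-fold. Ciart, the repressor also known as CHRONO, stood at 2.49 to 5.47 in the high livers and at -1.36 to -0.05 in the low livers, a difference of 4.60 ± 0.64 on 150 to 924 counts against 7 to 30. Of its stretches of 51 bases, 11.6% also occur in transcripts of other genes. Per2 followed with 1.92 ± 0.27, Per1 with 1.76 ± 0.41, and Cry2 with 0.89 ± 0.11. Per1 was lowest in livers near a score of 0 (1.45 and 2.11) and not in those with the lowest scores (4.47 and 4.21). Cry1 overlapped throughout, at 2.10 to 3.16 in the high livers and 2.19 to 3.19 in the low livers.

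In HNKO livers 4 of these 6 genes rose with the score, against 2.17% of all genes. Per3 rose by 0.54 ± 0.02 per unit (adjusted p = 3.43e-11, edgeR), Ciart by 0.75 ± 0.08 (adjusted p = 9.35e-05), Cry2 by 0.17 ± 0.02, and Per2 by 0.24 ± 0.05. Per3 ran from 2.58 to 7.05 over these 19 livers, with the lowest value in library 29 and 3.80 to 7.05 in the others. Per1 had a slope of 0.15 ± 0.07 (adjusted p = 0.249) and Cry1 one of -0.04 ± 0.05 (adjusted p = 0.737; 0.03 without library 29, adjusted p = 0.929). Without library 29 the slope of Per2 was 0.28 and its adjusted p 0.0888, and the adjusted p-values of Per3, Ciart, and Cry2 were 1.69e-08, 4.31e-04, and 0.0212. These 3 calls stand against 0.34% of all genes.

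Of the REV-ERB receptors, Nr1d2 was apart between the groups and Nr1d1 was not. Nr1d2 (REV-ERBβ) lay at 7.19 to 7.60 in the high livers and 6.10 to 6.62 in the low livers, a difference of 1.05 ± 0.11, and rose by 0.18 ± 0.02 per unit in HNKO livers (adjusted p = 6.2e-05, edgeR). Nr1d1 (REV-ERBα) overlapped, at 5.68 to 6.76 in the high livers, 5.74 to 7.09 in the middle livers, and 5.13 to 6.02 in the low livers. Its highest values were in middle and high livers of day 21 (7.09 and 6.76), whereas a high liver of day 6 had only 5.68. It overlaps Thra on the opposite strand, which differed by -0.05 ± 0.15. Nr1d1 rose in HNKO livers with all 19 libraries (0.26 ± 0.04, adjusted p = 0.00239) and had a slope of 0.17 without library 29 (adjusted p = 0.151). The ROR receptor gene Rora had a difference of -0.04 ± 0.06, with overlap.

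Tef, a PAR bZIP activator of D-box genes like Dbp itself, had a lowest, median, and highest value of 7.47, 8.06, and 8.39 in the high livers, 6.29, 7.05, and 7.34 in the middle livers, and 5.15, 5.64, and 6.22 in the low livers. Again the 3 groups were apart, by 2.29 ± 0.22 between the extremes. Hlf, the third of the family, differed by 0.70 ± 0.20, with a lowest high liver of 5.82 beside a highest low liver of 5.81. Nfil3, their antagonist, was lower in the high livers, at 2.18 to 3.77 against 4.05 to 4.74, a difference of -1.45 ± 0.28. In HNKO livers Tef rose by 0.35 ± 0.02 per unit (adjusted p = 8.72e-09, edgeR), Hlf rose by 0.19 ± 0.03 (adjusted p = 0.00535), and Nfil3 fell by 0.13 ± 0.03 (adjusted p = 0.0306). Only the call of Tef was kept without library 29, with an adjusted p of 8.56e-06. Without that library Hlf had a slope of 0.16 (adjusted p = 0.142) and Nfil3 one of -0.12 (adjusted p = 0.383).

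The DEC repressors compete with the activators at E-boxes. Bhlhe41 (DEC2) lay at 2.09 to 2.39 in all 6 high livers, at -0.24 to 1.80 in the middle livers, and at -2.06 to -0.16 in the low livers, on as few as 6 counts. The difference was 3.04 ± 0.27. Bhlhe40 (DEC1) differed by 0.45 ± 0.13. Bhlhe41 rose in HNKO livers (0.51 ± 0.10, adjusted p = 0.0104, edgeR) and had a slope of 0.44 without library 29 (adjusted p = 0.154). Of the 6 kinases and ubiquitin ligases that act on clock proteins, among them Csnk1d, none lay apart between the groups, against 2.82% of all genes. Their differences ran from -0.21 to 0.22. None was called in HNKO livers by edgeR (2.17% and 1.49% of all genes) or by DESeq2 (4.77% and 3.26%). None had an unadjusted p under 0.05, against 20.2% of all genes. At these shares such counts are no result about the list.

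**Figure D2:**
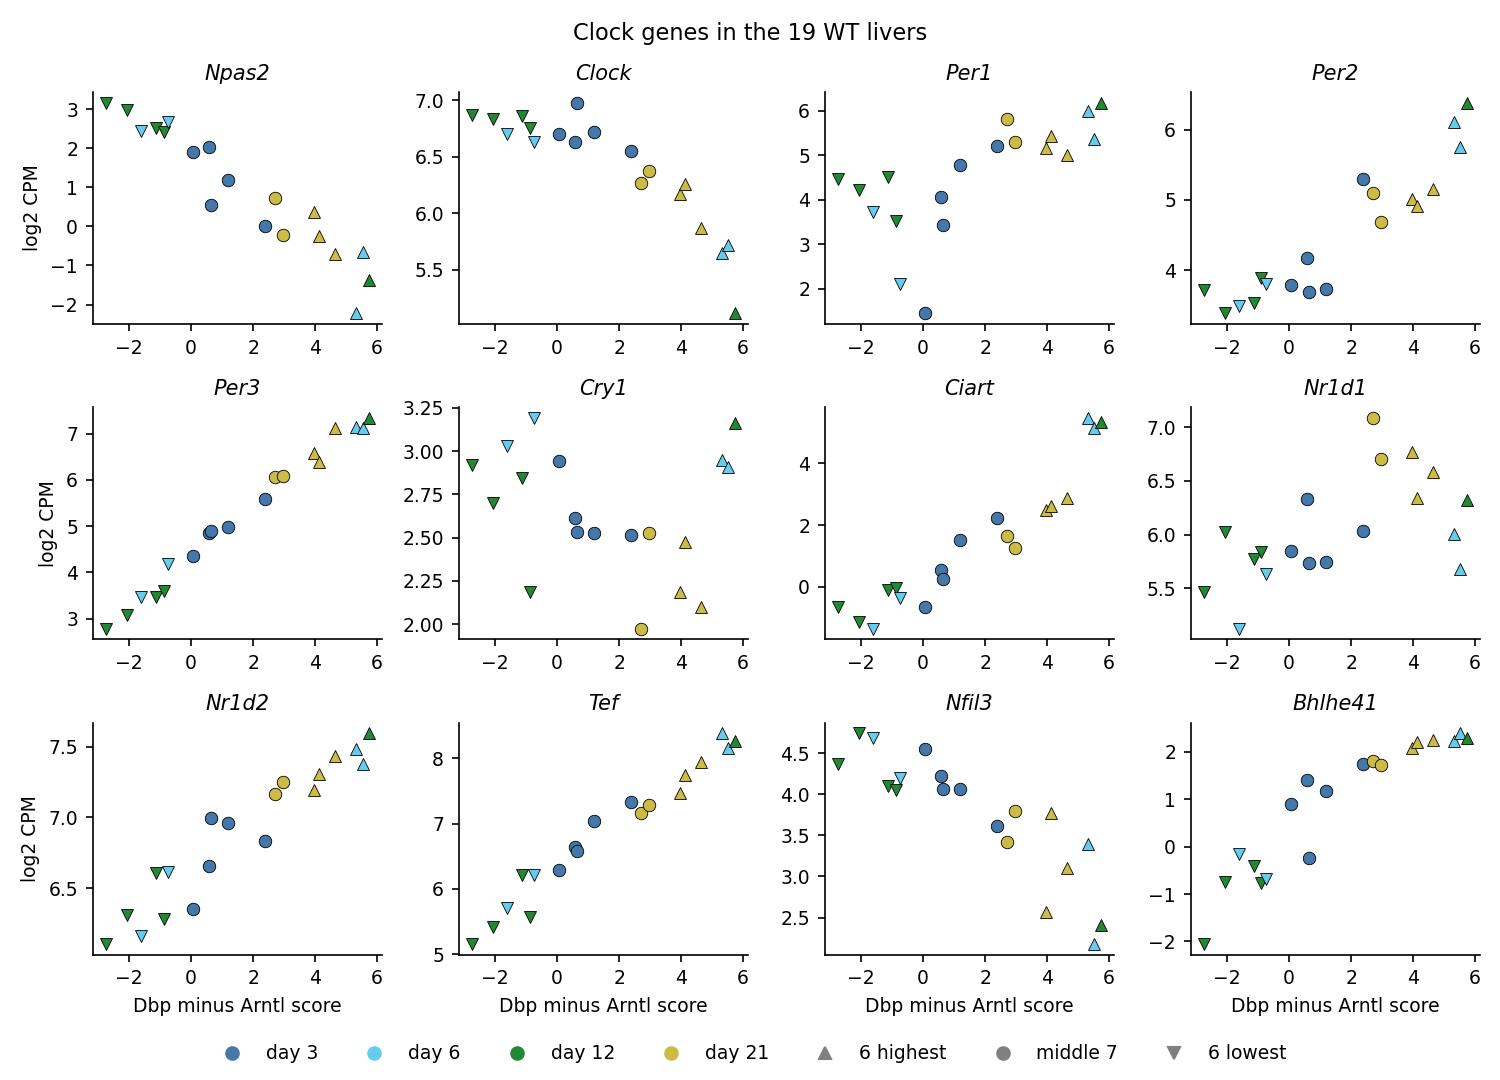
Log2 CPM of 12 clock genes (vertical axes, each with its own range) against the score (horizontal axes) in the 19 WT livers. Colors give the day of PD feeding and symbols the score group, with 1 point per liver. Per3 and Tef run up over the whole range and Npas2 runs down, whereas Cry1 and Nr1d1 overlap between the groups and Per1 is lowest near a score of 0.

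The 3 genes whose log2 CPM had the highest Pearson correlation with the score over the 19 WT livers were Per3 (r = 0.99), Tef (r = 0.98), and Usp2 (r = 0.96), and the 3 with the lowest were Slc45a3 (r = -0.96), Npas2 (r = -0.95), and Net1 (r = -0.95). These livers share the days and library numbers described above, and the correlations are a description without a test. In HNKO livers Net1 fell by 0.11 ± 0.02 per unit (adjusted p = 0.0175, edgeR) and had a slope of -0.12 without library 29 (adjusted p = 0.211).

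Promoter windows of these genes were searched for the 3 clock motifs, on both strands. The letters were CACGTG for the E-box, TTATGTAA or TTACGTAA for the D-box, and TAGGTCA or TGGGTCA for the ROR element, and none of these words contains another. The windows hold 250 bases before and 50 bases after a RefSeq start site (GRCm38.p6). At least 1 E-box was in 7.15% of all 32851 windows, a D-box in 1.06%, and a ROR element in 6.45%. Of the windows of tested genes the shares were 9.14%, 0.841%, and 5.39%.

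Windows were found for 45 of the 76 higher genes and 49 of the 96 lower genes. An E-box was in a window of 9 of the 45 higher genes and 3 of the 49 lower genes, a D-box in 3 and 2, and a ROR element in 2 and 8. By window, of which the higher genes had 63 and the lower genes 74, the shares were 15.9% and 4.05% for the E-box, 4.76% and 2.7% for the D-box, and 3.17% and 10.8% for the ROR element. The values of the livers chose both sets of genes, so these shares are a description, and a motif in a window does not show that a factor binds there. The 7 windows below are those of genes that stand out in the comparison and hold the motifs, 3 from higher genes and 4 from lower genes. They are printed 5′ to 3′ on the strand of the gene, with the motifs in capitals.

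Ciart, chr3:95882179-95882478, minus strand: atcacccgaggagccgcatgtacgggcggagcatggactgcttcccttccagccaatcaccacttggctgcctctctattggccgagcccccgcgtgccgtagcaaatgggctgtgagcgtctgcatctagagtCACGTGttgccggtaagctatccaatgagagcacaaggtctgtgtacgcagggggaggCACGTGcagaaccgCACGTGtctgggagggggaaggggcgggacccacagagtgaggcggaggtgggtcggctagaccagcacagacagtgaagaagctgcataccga
Coq10b, chr1:55052520-55052819, plus strand: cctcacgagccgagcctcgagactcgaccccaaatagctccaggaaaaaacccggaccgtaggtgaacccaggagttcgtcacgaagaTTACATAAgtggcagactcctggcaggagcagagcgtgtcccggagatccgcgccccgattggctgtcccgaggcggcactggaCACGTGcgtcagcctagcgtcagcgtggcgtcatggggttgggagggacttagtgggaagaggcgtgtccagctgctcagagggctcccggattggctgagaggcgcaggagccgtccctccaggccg
Per3, chr4:151044616-151044915, minus strand: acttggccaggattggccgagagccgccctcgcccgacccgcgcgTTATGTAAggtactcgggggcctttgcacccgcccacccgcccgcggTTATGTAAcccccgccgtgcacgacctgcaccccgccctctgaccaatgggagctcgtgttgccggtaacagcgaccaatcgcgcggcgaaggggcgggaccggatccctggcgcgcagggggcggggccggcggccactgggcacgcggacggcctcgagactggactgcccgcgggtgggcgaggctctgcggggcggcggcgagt
Nfil3, chr13:52980990-52981289, minus strand: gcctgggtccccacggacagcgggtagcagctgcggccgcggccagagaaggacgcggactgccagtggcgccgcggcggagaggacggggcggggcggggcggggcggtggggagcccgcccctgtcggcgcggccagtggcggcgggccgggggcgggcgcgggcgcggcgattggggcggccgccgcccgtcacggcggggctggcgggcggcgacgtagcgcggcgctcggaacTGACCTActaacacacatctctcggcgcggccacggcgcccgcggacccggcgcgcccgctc
Insig2, chr1:121327975-121328274, minus strand: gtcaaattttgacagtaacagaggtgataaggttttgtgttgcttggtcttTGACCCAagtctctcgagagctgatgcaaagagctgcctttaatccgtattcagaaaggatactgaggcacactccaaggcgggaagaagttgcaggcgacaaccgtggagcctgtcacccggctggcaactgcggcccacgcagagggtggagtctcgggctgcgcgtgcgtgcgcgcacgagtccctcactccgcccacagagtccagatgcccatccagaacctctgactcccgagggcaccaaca
Slc45a3, chr1:131970359-131970658, plus strand: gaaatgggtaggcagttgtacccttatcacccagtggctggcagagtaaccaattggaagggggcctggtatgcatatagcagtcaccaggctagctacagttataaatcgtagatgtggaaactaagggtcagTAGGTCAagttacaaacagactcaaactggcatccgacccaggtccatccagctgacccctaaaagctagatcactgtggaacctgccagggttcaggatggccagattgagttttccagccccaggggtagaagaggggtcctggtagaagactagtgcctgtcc
G6pc, chr11:101367466-101367765, plus strand: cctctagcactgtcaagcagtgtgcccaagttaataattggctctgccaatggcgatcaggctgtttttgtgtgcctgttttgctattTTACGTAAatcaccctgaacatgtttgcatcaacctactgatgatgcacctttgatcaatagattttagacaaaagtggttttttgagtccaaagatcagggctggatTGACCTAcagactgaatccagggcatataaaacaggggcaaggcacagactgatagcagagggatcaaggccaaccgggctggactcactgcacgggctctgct

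The window of Ciart holds 3 E-boxes, whose first bases are at -116, -58, and -44 from the start site. Coq10b, which makes a protein that helps coenzyme Q work, holds a D-box at -162 and an E-box at -78, and Per3 holds 2 D-boxes at -205 and -158. Among the genes that were lower in the high group, Nfil3 holds a ROR element at -12, Insig2 holds one at -199, and Slc45a3 holds one at -116 from the second of its 2 start sites. G6pc, also lower, holds a D-box at -162 as well as a ROR element at -54. Both start sites of Tef have an E-box (at -127 and -138), as do Bhlhe41 (at -153) and Per1 (at -166), and 1 of the 2 windows of Arntl has a ROR element at 30. Cry1, whose groups overlapped, has an E-box at -60.

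Of 15 genes of the liver that are known to follow the clock, 8 were higher and 1 was lower in the high group without overlap, against 1.49% and 1.34% of all genes. The median difference was 0.84 against 0.0013 for all genes. Usp2, a deubiquitinase encoded at chr9:44067021-44095627 (plus strand), had the largest difference, with a lowest, median, and highest value of 3.56, 4.90, and 6.33 in the high livers, 0.42, 1.87, and 3.64 in the middle livers, and -0.29, 0.26, and 0.72 in the low livers. The highest low liver was over 2 log2 units below the lowest high liver, and the difference was 4.64 ± 0.50, or 24.9-fold. Wee1, a kinase that holds cells before mitosis, differed by 2.85 ± 0.34 (3.53 to 5.24 against 0.57 to 2.10). Coq10b differed by 1.93 ± 0.31, and Upp2, a uridine phosphorylase, by 1.70 ± 0.33.

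Alas1, the rate-limiting enzyme of heme synthesis, lay at 7.64, 9.06, and 10.2 (lowest, median, and highest) in the high livers, 6.05, 7.25, and 9.40 in the middle livers, and 5.47, 6.98, and 7.48 in the low livers. The difference was 2.24 ± 0.51, and the high and low livers were close at their edges. Por, which passes electrons to the P450 enzymes that carry heme, differed by 1.38 ± 0.38 with overlap. Gys2, the liver glycogen synthase, was 1.02 ± 0.14 higher, and Nampt itself was 0.84 ± 0.18 higher (6.17 to 7.18 against 5.80 to 6.04). Avpr1a, a vasopressin receptor, was lower by 0.81 ± 0.17. Rgs16, Lpin1, Noct, Ppard, and Nr1i3 overlapped between the groups. Noct shares 31.1% of its stretches of 51 bases with other genes, and Nr1i3 overlaps Tomm40l on the opposite strand.

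In HNKO livers 7 of the 15 rose with the score and 1 (Ppard) fell, against 2.17% and 1.49% of all genes. Usp2 rose by 0.51 ± 0.06 per unit (adjusted p = 2.40e-04, edgeR), Por by 0.25 ± 0.04 (adjusted p = 0.00137), Upp2 by 0.50 ± 0.10 (adjusted p = 0.0109), Gys2 by 0.27 ± 0.04, Alas1 by 0.27 ± 0.07 (adjusted p = 0.0288), Coq10b by 0.22 ± 0.04, and Nampt by 0.10 ± 0.02 (adjusted p = 0.0334). Wee1 did not pass the test, with 0.14 ± 0.06 (adjusted p = 0.230; 0.27 without library 29, adjusted p = 0.252). Without library 29 the calls of Usp2, Por, Coq10b, and Nampt were kept (slopes of 0.70, 0.36, 0.30, and 0.17), and those of Upp2, Gys2, Alas1, and Ppard were lost (adjusted p of 0.149, 0.0645, 0.0993, and 0.217). The slopes of the latter were then 0.44, 0.20, 0.37, and -0.11, so that of Alas1 was larger than with library 29. The Nampt of an HNKO liver can come from floxed hepatocytes and from any cells that keep the gene.

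**Figure D3:**
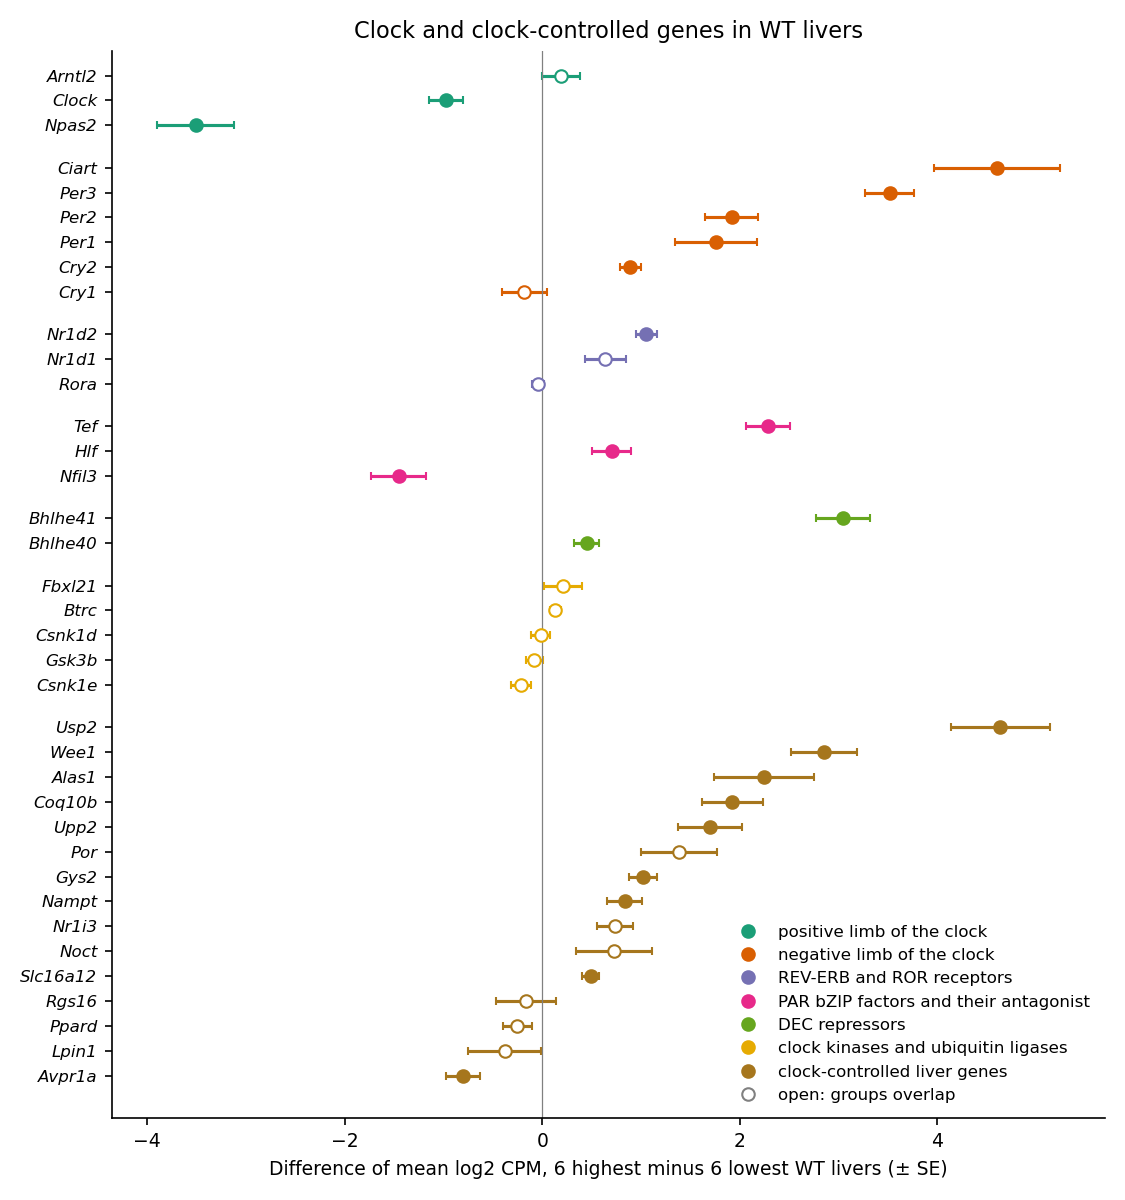
Difference of mean log2 CPM between the 6 highest and the 6 lowest WT livers (horizontal axis) for clock genes and 15 clock-controlled liver genes (vertical axis), with SE as bars. Filled points are genes whose groups do not overlap. Usp2 (4.64), Ciart (4.60), and Per3 (3.52) are farthest to the right, Npas2 (-3.51) is farthest to the left, and the kinases and ligases shown lie between -0.21 and 0.22.

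The high group was not uniform, which was seen after the values were known. Its 3 livers of days 6 and 12 had higher scores than its 3 livers of day 21. Ciart was at 5.16 to 5.47 in the former and 2.49 to 2.88 in the latter, and Usp2 was at 5.67 to 6.33 against 3.56 to 4.13. Cyp2a5, a P450 enzyme that oxidizes coumarin, was at 10.5 to 10.6 against 8.69 to 8.91, and the day 21 livers of the high group then lay within the range of the middle livers (7.78 to 9.46). Por (9.05 to 9.76 against 7.51 to 8.07) and Alas1 (9.49 to 10.2 against 7.64 to 8.63) were split in the same way. Day and score cannot be told apart in this split, since the high livers of day 21 all scored lower.

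The 12 genes with the largest higher and the 12 with the largest lower differences, among genes that averaged 2 log2 CPM or more over the 19 livers and whose groups did not overlap, were named by rule. Beside the genes above, the higher ones were Gm45909, Cyp7a1, and Pcsk4. Pcsk4, a proprotein convertase, lay at 4.29 to 5.27 in the high livers and 2.50 to 3.07 in the low livers (2.03 ± 0.20), and Gm45909, a gene model, lay at 4.57 to 5.24 and 2.05 to 3.06 (2.27 ± 0.19). Both rose in HNKO livers, Pcsk4 by 0.37 ± 0.03 per unit (adjusted p = 1.14e-05, edgeR) and Gm45909 by 0.55 ± 0.06 (adjusted p = 9.35e-05), and both calls were kept without library 29.

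The lower ones were Pdk4, G6pc, Slc45a3, Tubb2a, Insig2, Gm37174, Gm30301, Lrfn3, Chka, Lgalsl, Fam198a, and Abtb2. Slc45a3, a sugar transporter, lay at 2.54, 3.52, and 4.21 (lowest, median, and highest) in the high livers, 4.39, 5.03, and 5.29 in the middle livers, and 5.16, 5.49, and 6.03 in the low livers, a difference of -1.98 ± 0.28, with 12.0% of its stretches of 51 bases shared. High and middle livers were apart, and middle and low livers met. Tubb2a, a β-tubulin, differed by -1.94 ± 0.30, although 49.3% of its stretches of 51 bases also occur in transcripts of other genes. Chka, the choline kinase that starts phosphatidylcholine synthesis, differed by -1.63 ± 0.28 (3.36 to 4.71 against 5.51 to 6.14). Lgalsl differed by -1.63 ± 0.26 and Abtb2 by -1.57 ± 0.22. Gm37174 lies inside the bounds of Insig2 on the opposite strand, and Gm30301 overlaps 5033403H07Rik on the opposite strand, so the reads of these pairs may not be told apart.

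In HNKO livers 10 of these 12 fell with the score, against 1.49% of all genes. The adjusted p-values (edgeR) were 6.2e-05 for Abtb2, 6.6e-05 for Chka, 1.20e-04 for Lgalsl, 1.30e-04 for Tubb2a, and 4.19e-04 for Slc45a3, with slopes of -0.23 ± 0.02, -0.32 ± 0.03, -0.19 ± 0.02, -0.31 ± 0.04, and -0.24 ± 0.03. All 5 were also called without library 29, where 0.36% of all genes were, whereas the calls of Pdk4, Gm37174, and Lrfn3 were not (adjusted p = 0.0915, 0.202, and 0.0817, with slopes of -0.56, -0.34, and -0.20). Fam198a fell by 0.28 (adjusted p = 0.0296), and by 0.46 without library 29 (adjusted p = 0.015). G6pc (-0.22, adjusted p = 0.281) and Gm30301 (-0.16, adjusted p = 0.325) did not pass, with slopes of -0.38 and -0.33 without library 29 (adjusted p = 0.287 and 0.210). Loxl4, Npas2, and Rnf144a were the other genes with the smallest p-values of negative slope, and Aqp11 and Nr1d2 those of positive slope beside Per3, Tef, and Pcsk4. Aqp11, an aquaporin, overlapped between the WT groups (0.54 ± 0.13).

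Among 9 genes of bile acid synthesis and transport, Cyp7a1 and Insig2 were apart between the groups, in opposite directions (1.49% of all genes were higher and 1.34% lower without overlap). Cyp7a1, the rate-limiting enzyme of bile acid synthesis, lay at 6.49, 7.78, and 8.36 (lowest, median, and highest) in the high livers, 2.7, 6.62, and 7.81 in the middle livers, and 4.56, 5.81, and 6.00 in the low livers. The lowest value, 2.7, was in a middle liver of day 3, below every low liver. The difference was 2.04 ± 0.36, or 4.11-fold. Insig2, which holds back the SREBP factors of lipid synthesis, lay at 5.01, 6.45, and 6.98 in the high livers, 6.94, 7.52, and 8.27 in the middle livers, and 7.45, 8.07, and 8.56 in the low livers (-1.83 ± 0.33). Cyp8b1, the sterol 12α-hydroxylase, differed by -1.48 ± 0.37 with overlap. In HNKO livers Insig2 fell by 0.26 ± 0.05 per unit (adjusted p = 0.00577, edgeR) and by 0.39 without library 29 (adjusted p = 0.00309). Cyp7a1 had a slope of 0.24 ± 0.09 (adjusted p = 0.144), and of 0.50 without library 29 (adjusted p = 0.100). Nr1h4, the bile acid receptor FXR, rose by 0.11 ± 0.02 with all 19 libraries (adjusted p = 0.0189) and had a slope of 0.10 without library 29 (adjusted p = 0.251).

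Of 17 genes of the fasting response, Pdk4 and G6pc were lower and Cpt1a and Creb3l3 higher in the high group without overlap (1.34% and 1.49% of all genes), and the median difference of the list was -0.07. Pdk4, which turns off pyruvate dehydrogenase, lay at 1.5, 2.47, and 3.31 in the high livers, 1.81, 3.01, and 4.43 in the middle livers, and 4.35, 5.05, and 5.33 in the low livers (-2.49 ± 0.37). G6pc, the glucose-6-phosphatase that releases glucose from the liver, lay at 6.28, 7.35, and 8.97 in the high livers and 9.10, 9.82, and 10.3 in the low livers (-2.23 ± 0.43). Pck1, the other key enzyme of gluconeogenesis, overlapped (0.29 ± 0.26), as did Igfbp1 (-1.82 ± 0.42) and Fgf21 (-1.56 ± 0.56). Cpt1a, which takes fatty acids into mitochondria, was 0.56 ± 0.10 higher. The list thus had members in both directions. In HNKO livers 1 of the 17 fell and 2 rose, against 1.49% and 2.17% of all genes. Pdk4 fell by 0.39 ± 0.09 (adjusted p = 0.0209, edgeR), and Creb3l3 rose by 0.10 ± 0.03 (adjusted p = 0.0314). Without library 29 the slopes of Pdk4 and Creb3l3 were larger in size, at -0.56 and 0.14, and neither was called (adjusted p = 0.0915 and 0.106).

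Of 11 genes of fatty acid synthesis, 10 had a lower mean in the high group, with a median difference of -1.40. But all 11 overlapped between the groups, where 2.82% of all genes did not. Acly, which makes cytosolic acetyl-CoA, lay at 8.31 to 9.27 in the high livers and 8.83 to 11.9 in the low livers (-1.80 ± 0.51). Fasn, the fatty acid synthase, lay at 9.56 to 11.3 against 10.9 to 13.5 (-1.71 ± 0.48), and a middle liver of day 21 reached 12.9. Pnpla3 differed by -2.55 ± 0.54 and Srebf1, the main activator of the pathway, by 0.52 ± 0.15. In HNKO livers none of the 11 was called by edgeR with all 19 libraries, 2 had an unadjusted p under 0.05 against 20.2% of all genes, and DESeq2 called 1 negative, against 662 of all genes (3.26%). Without library 29, 5 of the 11 had a negative slope past the test, against 0.36% of all genes. They were Acaca (-0.39, adjusted p = 0.00782), Elovl6 (-0.49, adjusted p = 0.0114), Acacb (-0.43, adjusted p = 0.0191), Acly (-0.52, adjusted p = 0.0233), and Me1 (-0.46, adjusted p = 0.0422). With all 19 libraries these 5 slopes were -0.12, -0.17, -0.16, -0.21, and -0.15. Fasn (-0.14) and Pnpla3 (-0.26) had slopes of -0.45 and -0.64 without library 29, which did not pass (adjusted p = 0.0865 and 0.0619). For Acaca and Me1, 30.3% and 22.6% of the stretches of 51 bases also occur in transcripts of other genes.

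Of 14 genes of cholesterol synthesis and uptake, 11 had a lower mean in the high group (median -0.61). All 14 overlapped, where 2.82% of all genes did not. Hmgcs1, which makes HMG-CoA, differed by -0.95 ± 0.33 and Sqle, the squalene epoxidase, by -1.02 ± 0.42. In HNKO livers Srebf2, Cyp51, and Dhcr7 fell with the score (adjusted p = 0.021, 0.0395, and 0.0277, edgeR), against 1.49% of all genes. Of the 14, 12 had an unadjusted p under 0.05 against 20.2% of all genes, and DESeq2 called 8 negative, against 3.26%. Without library 29 Dhcr7 was called (-0.25 against -0.15 with it, adjusted p = 0.0338), and Srebf2 and Cyp51 had slopes of -0.07 and -0.22 (adjusted p = 0.287 and 0.271). Cyp51 overlaps Akap9 on the opposite strand.

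**Figure D4:**
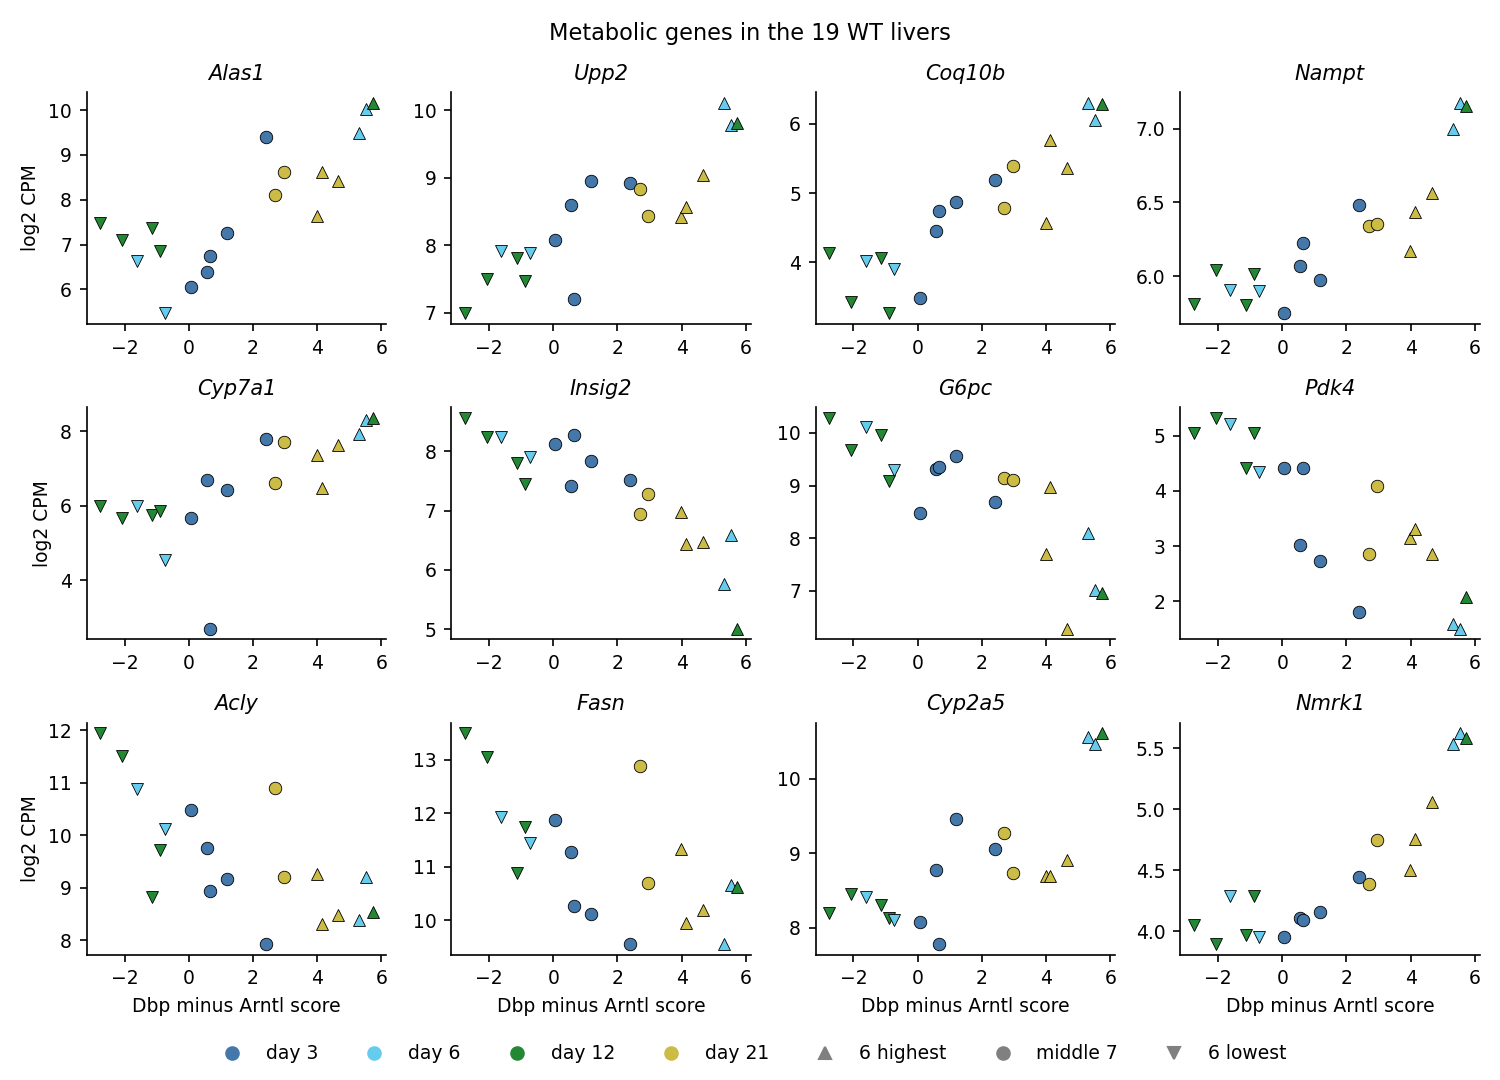
Log2 CPM of 12 metabolic genes (vertical axes, each with its own range) against the score (horizontal axes) in the 19 WT livers, with colors for the day of PD feeding, symbols for the score group, and 1 point per liver. Alas1, Upp2, and Coq10b are higher and Insig2, G6pc, and Pdk4 lower at high scores. Acly and Fasn spread widely within each group, and Fasn reaches 12.9 in a middle liver.

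Of 12 genes of NAD metabolism, Nampt, Nmrk1, and Sirt3 were higher in the high group without overlap, against 1.49% of all genes. Nmrk1, a kinase of nicotinamide riboside, lay at 4.50 to 5.62 in the high livers and 3.89 to 4.29 in the low livers (1.10 ± 0.21, or 2.15-fold). Sirt3, the mitochondrial NAD-dependent deacylase, differed by 0.26 ± 0.07, and it overlaps Psmd13, which differed by -0.10 ± 0.09, on the opposite strand. Naprt, Qprt, Nadsyn1, Nmnat1, and Parp1 had differences from -0.11 to 0.13, all with overlap, and Naprt shares bases with Eef1d on the same strand. In HNKO livers 3 of the 12, Nampt among them, rose and 1 fell, against 2.17% and 1.49% of all genes. Nmrk1 rose by 0.11 ± 0.03 (adjusted p = 0.0447, edgeR) and Sirt3 by 0.09 ± 0.02 (adjusted p = 0.0327), and Cd38, which breaks NAD down, fell by 0.06 ± 0.01 (adjusted p = 0.021). Without library 29 their slopes were 0.17, 0.05, and -0.07 (adjusted p = 0.078, 0.502, and 0.184). Nampt was the 1 member called both with and without library 29.

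Of 8 drug-metabolizing enzymes, Cyp2a5 alone was apart between the groups and was higher in the high group, against 1.49% of all genes. It lay at 8.69 to 10.6 in the high livers and 8.10 to 8.45 in the low livers, a difference of 1.39 ± 0.40. In HNKO livers it rose by 0.43 ± 0.09 (adjusted p = 0.0129, edgeR), with a slope of 0.37 without library 29 (adjusted p = 0.179). Its stretches of 51 bases are 36.2% shared with other genes, and Cyp2a4, its close paralog, differed by 0.37 ± 0.45. Ugt1a1, which conjugates bilirubin, overlapped between the groups (0.46 ± 0.18) and was the other of the 8 that rose in HNKO livers, against 2.17% of all genes (0.19 ± 0.04, adjusted p = 0.00885, edgeR). Its slope was 0.18 without library 29 (adjusted p = 0.150), and 58.1% of its stretches of 51 bases are shared with other genes. Of 6 glucocorticoid targets, 10 heat shock and cold-inducible genes, and 8 tested immediate early genes of 9, none was apart between the groups. Of all genes 2.82% were, so this count is no result about these lists. Junb came nearest, with 1.52 ± 0.31 and 5.24 to 6.72 against 3.75 to 5.27, and it overlaps Prdx2 on the opposite strand. Among these 3 lists the edgeR test in HNKO livers called Hspd1 (0.09 ± 0.02, adjusted p = 0.0356), which had a slope of 0.10 without library 29 (adjusted p = 0.183). Hspd1 overlaps Hspe1 on the opposite strand and shares 39.3% of its stretches of 51 bases with other genes. Of the 24 tested genes 9 had an unadjusted p under 0.05, against 20.2% of all genes, and DESeq2 called 3 positive and 2 negative, against 4.77% and 3.26%.

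The markers of hepatocytes, Kupffer cells, endothelial cells, stellate cells, bile ducts, and lymphocytes all overlapped between the WT groups, with list medians from -0.07 to 0.0074. Only 2.82% of all genes did not overlap, so the overlap of these markers does not show that the groups match in cell make-up. The 5 red blood cell markers (Hba-a1, Hba-a2, Hbb-bs, Hbb-bt, and Alas2) also overlapped but had lower means in the high group, with a median of -1.14. The 4 globin genes share 53.1% to 89.1% of their stretches of 51 bases with other genes, and Alas2 overlaps Apex2 on the opposite strand. Their summed level was 31.8 to 150 CPM in the high livers and 86.2 to 294 CPM in the low livers, and their part in the other differences was not tested. In HNKO livers the Kupffer cell marker Adgre1 fell by 0.09 ± 0.02 (adjusted p = 0.0437, edgeR), with a slope of -0.11 without library 29 (adjusted p = 0.201). All 5 bile duct markers had negative HNKO slopes (median -0.15), none was called by edgeR, 4 had an unadjusted p under 0.05 against 20.2% of all genes, and DESeq2 called 2 negative against 3.26%. No red blood cell marker was called by edgeR or DESeq2, 2 had an unadjusted p under 0.05 against 20.2%, and the median slope was -0.24 (-0.53 without library 29). The part of these markers in the HNKO slopes was not tested.

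Of the 76 genes higher in the high WT livers, 37 (48.7%) rose with the score in HNKO livers by edgeR, against 2.17% of all genes, and 70 had a positive slope, against 47.6% of all genes. Of the 96 lower genes, 40 (41.7%) fell in HNKO livers, against 1.49%, and 88 had a negative slope, against 52.4%. Without library 29 the called genes were 15 of the 76, against 0.34% of all genes, and 23 of the 96, against 0.36%. No WT library entered the HNKO fit, and the score was computed for each HNKO library from its own Dbp and Arntl. Of the 76 higher genes 34, and of the 96 lower genes 50, had a mean under 2 log2 CPM, where the counts and so the precision are low.

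**Figure D5:**
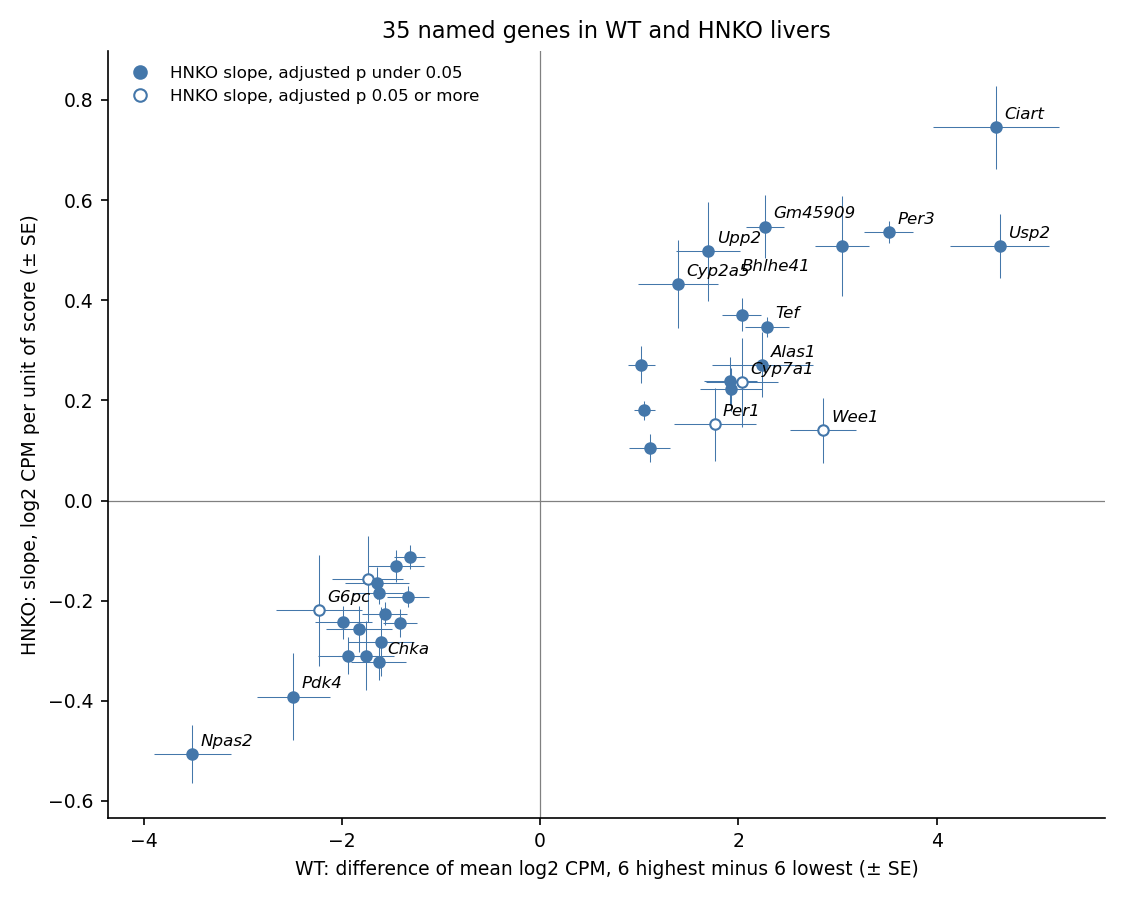
Difference between the high and low WT livers (horizontal axis, log2 CPM ± SE) and slope on the score in the 19 HNKO livers (vertical axis, log2 CPM per unit of score ± SE) for the 35 named genes past the 2-fold rule. Filled points have an adjusted p under 0.05 in HNKO livers. The 35 points lie in the 2 quadrants of equal sign, and since some were named for their p in HNKO livers their share of filled points is no result.

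The difference of the slopes between HNKO and WT livers was tested over 38 libraries. By edgeR 3 of 20295 genes passed (0.0148%), 1888 (9.3%) had an unadjusted p under 0.05, and DESeq2 called 15 (0.0739%). Cldn1, a claudin of tight junctions, was lower in the high WT livers (5.89 ± 0.88, SD, against 7.25 ± 0.15, n = 6 and 6). It fell by 0.11 ± 0.02 per unit in HNKO livers (adjusted p = 0.0105, edgeR), a slope 0.19 ± 0.03 above that of WT livers (adjusted p = 0.0267). That difference was not called without WT library 16 of day 12 (adjusted p = 0.686), WT library 28 of day 6 (0.0688), HNKO library 29 (0.509), or HNKO library 32 of day 12 (0.0729). The HNKO slope of Cldn1 without library 29 is not given here, so whether its HNKO call holds without that library is not shown. Cldn1 is among the 96 genes chosen for a large WT difference, and its WT slope rests on the same livers. For the other genes a p that misses the threshold does not show that the slopes are equal.

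To set the day apart from the score, a slope on the score with a mean for each day was fitted over the 19 WT livers, without a test, and multiplied by the gap of 6.42. It gave 3.36 for Per3, 5.32 for Usp2, 5.52 for Ciart, -3.70 for Npas2, 2.32 for Tef, and 3.06 for Alas1. For metabolic genes it gave 2.48 for Cyp7a1, -2.90 for Pdk4, -2.37 for G6pc, -2.22 for Insig2, and 1.09 for Nampt. These values rest on the livers that chose the groups and are a description. Over the 9 pooled livers of days 6 and 12, with the days in unequal shares in the 2 groups, Per3 differed by 3.77, Npas2 by -4.12, and Alas1 by 3.08. Among the libraries numbered 1 to 21, with 6 high and 2 low livers, Per3 differed by 3.61, Npas2 by -3.50, and Alas1 by 2.08. Both subsets hold the same livers as the full groups, so the sign of a gene without overlap was fixed in advance.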

How the data were processed

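Total RNA of whole liver was depleted of ribosomal RNA and sequenced as stranded 51-bp paired ends. Per the study's methods, the authors aligned reads with STAR 2.7.2b to GRCm38, counted them per gene of GENCODE M22 with featureCounts 1.6.4, and deposited raw counts. The strand setting of the counting is not given in the sources used here. Reads in genes with an overlapping or near-identical copy may be split, which is stated beside most of the affected genes the text names. The table holds 55487 genes, of which 20297 passed filterByExpr (minimum count 10, minimum total 15, proportion 0.7). All libraries mapped to a label, and 55094 genes to a symbol.

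The groups, the genes, and the gene lists were chosen with earlier results of these data known. WT groups were compared as differences of mean log2 CPM with TMM scaling and prior count 2, without a test. Slopes in HNKO livers and slope differences were tested with edgeR 4.0.16 (quasi-likelihood, R 4.3.3) on the deposited counts, with day means as covariates, and with DESeq2 1.42.0 as an alternative. Genes were named from the lists, and as the 12 largest differences in each direction among genes that averaged 2 log2 CPM or more and whose groups did not overlap, the 5 smallest p-values of each sign in HNKO livers, and the 3 highest and 3 lowest correlations with the score. Some list members count in the list totals but are not reported here by name. The scripts were tested on simulated data. Of 81 pairs of replicate libraries none agreed within sampling noise (lowest chi-square per gene 12.5). Promoter windows came from RefSeq (GRCm38.p6) and were found for 144 of 189 named genes. Alternatives were other scalings, filters, scores, and group sizes, the left-out libraries, and 3 chosen after the data were seen (WT days 6 and 12, WT libraries 1 to 21, and HNKO livers without day 6).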

Additional observations from a re-analysis of the deposited data

Results flagged for a closer look

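In HNKO livers of day 6, library 29 had a score of -3.20, far from the nearest at 2.99. In WT livers of day 12, library 16 had a score of 5.73, far from the nearest at -0.89. WT library 21 had 64181500 total counts to 6 digits, against a nearest value of 29032600 among WT livers of day 21 and of 26668400 in the high group. In the low group, Bhlhe41 was at -2.06 log2 CPM in library 34 (nearest -0.77) and Cyp7a1 was at 4.56 in library 28 (nearest 5.68). These are 6 of 90 groups examined for a library far from the rest, and chance picks about 1 in 20.

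The slope on the score differed between HNKO and WT livers for 3 genes by edgeR's quasi-likelihood test over 38 libraries. For Cldn1 the HNKO slope was 0.19 above the WT slope (adjusted p = 0.0267). For the immunoglobulin gene Ighv1-11 it was 5.82 above (adjusted p = 0.0148), but DESeq2 gave 1.99 (adjusted p = 0.328), and the gene was at -3.68 and -3.10 mean log2 CPM in the high and low WT livers, close to no counts. For Igkv8-16, also an immunoglobulin gene, it was 5.54 above (adjusted p = 0.0461), at -3.85 and -3.13 mean log2 CPM, and the adjusted p was 0.103 with a term for library numbers above 21. The call of Igkv8-16 was also lost in 15 of 38 fits that left out 1 library, with an adjusted p of up to 0.686, and that of Ighv1-11 in 3 of 38.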

How the results depend on the processing

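The counts of WT genes, 76 higher and 96 lower, were 132 and 168 with 5 against 5 livers, 247 and 372 within days 6 and 12, and 206 and 281 among libraries 1 to 21. The lower count was 62 with at least 10 counts in every WT library, 62 with 7 against 7 livers, and 45 with a score of Nr1d1 minus Npas2, which shared 4 of the high and 6 of the low livers. The higher count was 48, of which 22 were among the 76, with day means removed from the score, and the lower count was then 116, of which 43 were among the 96. Leaving out 1 WT library gave 69 (without WT library 16 of day 12) to 114 (without WT library 19 of day 21) higher and 95 to 134 lower genes.

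In HNKO livers the 440 positive and 303 negative genes were 968 and 662 by DESeq2, which called 428 and 286 of the same genes. They were 139 and 60 with all 21 HNKO libraries, and 51 and 39 without day 6. The negative count was 158 with no day term. Leaving out 1 library gave 69 to 476 positive and 73 to 374 negative genes. Of the WT genes, the 37 positive and 40 negative were 20 and 24 with all 21 libraries and 13 and 16 without day 6, and the 37 were 22 with the score of Nr1d1 minus Npas2. Leaving out 1 library gave 15 to 39 and 23 to 41. The 3 slope differences were 15 by DESeq2, 1 with at least 10 counts in every library, and 0 (without WT library 16 of day 12) to 9 (without HNKO library 7 of day 6) when 1 library was left out. The lowest HNKO counts of these left-out fits were all without library 29. For each other change of a count the cause was not tested. No direction of a named gene reversed past the test under these alternatives.

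No paired analysis was possible because each library number occurs once, so the groups compared share no replicate number. Score, day, and library number overlap in part, and the hour of collection is not given. Genes on few counts, such as Bhlhe41 and Ciart in the low livers, are known with low precision.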
